A study of Glycine max with 5 samples.

Results

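The flavonol and anthocyanin branch of flavonoid synthesis was followed in soybean (Glycine max) through 7 genes: the chalcone synthase gene CHS1, the chalcone isomerase genes CHI1A, CHI2-A and CHI3A1, the flavanone 3-hydroxylase gene F3H, the flavonol synthase gene FLS1 and the anthocyanidin synthase gene ANS2. Members were all probe sets that the platform annotation assigns to exactly 1 of these genes, which gave 18 of the 37593 probe sets on the array. CHS1 had 7 of them, CHI3A1 had 4, F3H and FLS1 had 2 each, and CHI1A, CHI2-A and ANS2 had 1 each. All plants were of the genotype Bragg, 10 days old, and grown without fertilizer in a soil, perlite and sand mix under long days. The root meristem group (3 arrays) came from root tips of 0.5 mm dissected under a microscope. The non-meristematic group (2 arrays) came from other parts of the seedlings, which 1 label field calls leaf, so that its exact makeup is open and a difference between dividing and differentiated tissue cannot be told apart from one between organs. A free-text field that speaks of embryos goes with none of the other labels and was not used. The titles call the samples biological replicates, with no word on how many plants each held, so that p-values reflect how far these samples vary.

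Flavonoids are built from a phenylpropanoid and malonyl units. Chalcone synthase makes the first chalcone, which chalcone isomerase closes into a flavanone, the branch point of the pathway. Flavanone 3-hydroxylase turns the flavanone into a dihydroflavonol, from which flavonol synthase makes flavonols, known as ultraviolet screens of leaves. Dihydroflavonol reductase and anthocyanidin synthase lead from the same intermediate to the anthocyanin pigments. In legumes a further branch, opened by chalcone reductase and isoflavone synthase, makes isoflavones and pterocarpan defence compounds, for which roots are known.

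The values were MAS5 signals, 1 linear intensity for each probe set and array. Background was taken as the 25th percentile of each array. It was 17.9 to 22.5 in root meristem, 37 on non-meristematic array 1 and 26.3 on array 2. Only probe sets above background on 2 or more arrays entered the test. A difference passed when limma gave an adjusted p below 0.05, with Benjamini-Hochberg adjustment over all 30941 probe sets tested, and a log2 difference of at least 1. Across these probe sets, which are no independent replicates of each other, log2 signals of the root meristem arrays had Spearman correlations of 0.965 or more with each other, those of the non-meristematic arrays 0.871, and arrays of different groups at most 0.626. Of the 30941 probe sets, 4452 were higher in root meristem and 5608 lower; the split was 5719 and 4717 after quantile normalization, and 7668 and 4689 after median centring. The median log2 difference over all probe sets tested was 0.07, and moved to 0.30 and 0.43 under these scalings.

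Most tissue markers differed between the groups in the direction of the labels. Of 8 genes of green leaf tissue, 7 were lower in root meristem. Together the 7 gave a summed signal of 350.8 to 410.2 on each root meristem array, against 35079 on non-meristematic array 1 and 25642 on array 2. The eighth, the photosystem gene PSAD, went the other way on its brightest probe set, with 4662 to 4996 in root meristem against 2833 and 3178 (log2 0.67 ± 0.13, adjusted p = 0.00759, under the minimum size), while its other 2 tested probe sets were lower by 28.1-fold and 92.9-fold. Both leaf storage protein genes and 2 of 3 YABBY genes, which mark the leaf blade, were lower. All 4 phloem genes of the sieve element occlusion family were lower, with a summed signal of 261.5 to 458.1 against 4669 and 4374. Both genes of dividing cells, H4 and PCNA, were higher, with a summed signal of 3576 to 4462 against 1348 and 1028. PIN2A, an auxin efflux carrier of root tips, had signals of 1740 to 2401 in root meristem but of 26.1 and 25.2 in the other tissue. PIN2A was below background on both non-meristematic arrays. The 2 lower YABBY genes, 1 leaf storage gene and the green leaf gene RCAALPHA were below background on all root meristem arrays. These genes entered the test only through the group where they were high, so the filter gave their direction. None of the marker genes was at 0 on all arrays, and the part of tissue makeup in the results below was not tested. In bulk tissue, fewer cells of a type and less RNA per cell cannot be told apart.

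Most of the tested members were lower in root meristem. Of the 18 probe sets, 16 were tested, of which 10 were lower, 1 was higher and 5 did not pass. Over all probe sets tested, 18.1% were lower and 14.4% higher. The median log2 difference was -1.91 over the 16 members tested and 0.07 over all. All root meristem arrays lay below both non-meristematic arrays at 11 of the 16 (29.6% of all probe sets tested) and above both at 3 (34%). The brightest probe set of a gene was the tested one with the highest mean log2 signal over the 5 arrays. By it, 5 of the 7 genes were lower, CHI1A was higher and F3H did not pass, against 21% lower and 18.6% higher among all 5652 genes tested. With the highest mean linear signal in place of log2, a choice made after seeing the data, F3H was represented by its other probe set and 6 genes were lower. Both FLS1 probe sets and the CHI3A1 probe set GmaAffx.4189.1.S1_at entered the test only through their signal in non-meristematic tissue, so that their direction was given by the filter. Without non-meristematic array 1, the log2 differences of 4 CHS1 probe sets rose to between 2.54 and 3.28. Without array 2, FLS1 was not tested and CHS1 was represented by another probe set.

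**Figure D1:**
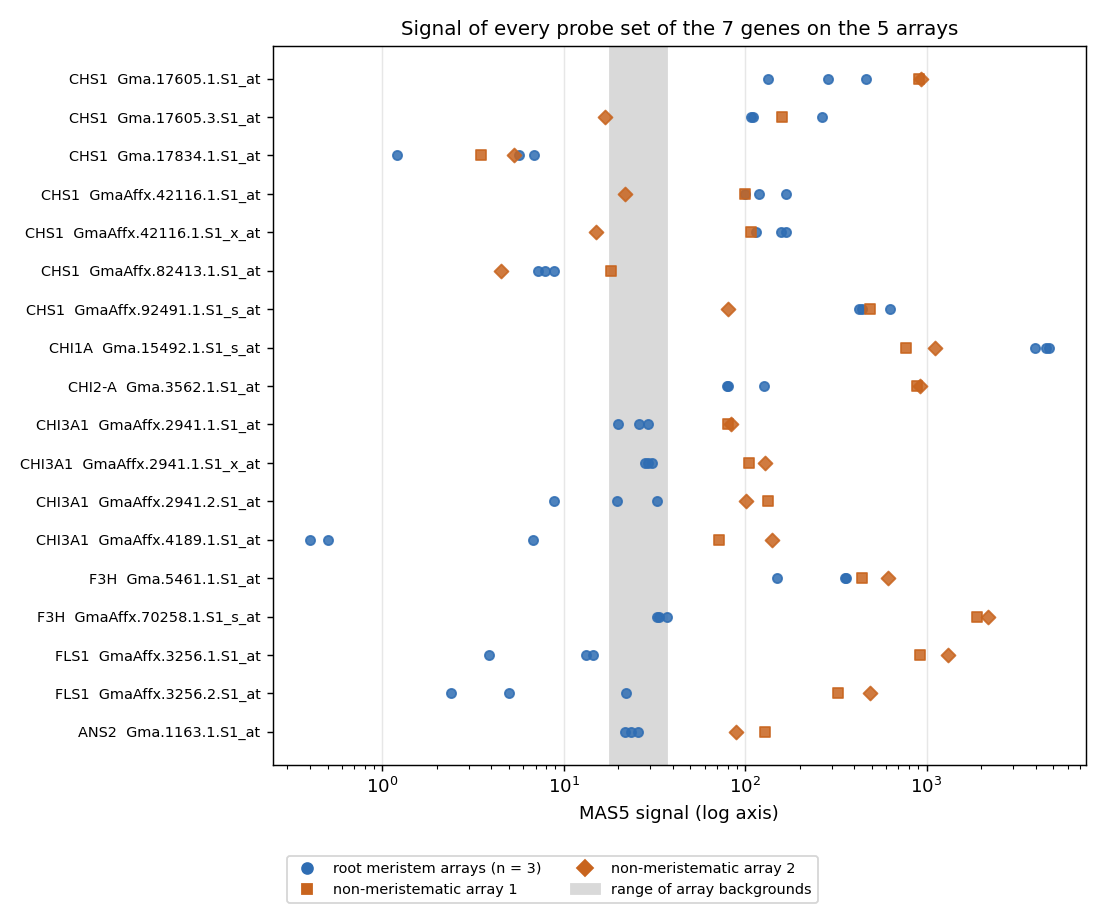
MAS5 signal (horizontal log axis) of each of the 18 probe sets (rows) on the 3 root meristem arrays (blue circles) and on non-meristematic arrays 1 and 2 (orange square and diamond). The grey band spans the array backgrounds of 17.9 to 37, and both FLS1 probe sets lie below it or inside it in root meristem and above it in non-meristematic tissue.

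Flavonol synthase was well above background in non-meristematic tissue and not in root meristem. FLS1 on GmaAffx.3256.1.S1_at had signals of 3.9, 13.3 and 14.6 in root meristem against 922.8 and 1320 in non-meristematic tissue. Every root meristem value lay below its array's background, so the gene was not well above background there, and both non-meristematic values were far above theirs. With the dim group held at background, FLS1 signal in root meristem was lower by at least 54.4-fold. The limma test used the signals without that bound (adjusted p = 0.000388), and the filter had given the direction. The second FLS1 probe set gave the same picture at lower signal, with 22.1, 2.4 and 5 in root meristem against 326.3 and 486.8, at least 19.7-fold lower. Its adjusted p of 0.00305 (limma) was likewise for the signals without the bound. With either non-meristematic array left out, neither FLS1 probe set could be tested, because a single array then lay above background.

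Anthocyanidin synthase was also lower in root meristem. ANS2 had signals of 25.6, 23.5 and 21.8 in root meristem, each just above its array's background, against 128 and 89.3 in non-meristematic tissue. No root meristem value reached a non-meristematic one, and the difference was 4.53-fold (log2 -2.18 ± 0.35 SE, adjusted p = 0.00374). The root meristem backgrounds were 22.5, 20.7 and 17.9 in the same array order, so the size of the fold is uncertain.

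The 2 probe sets of flavanone 3-hydroxylase disagreed in size. On GmaAffx.70258.1.S1_s_at, F3H had 33.7, 37.2 and 32.7 in root meristem against 1894.6 and 2174.8 in the other tissue, a 58.9-fold decrease (log2 -5.88 ± 0.23, adjusted p = 2.91e-05). The suffix of that probe set marks it as able to match several transcripts. On Gma.5461.1.S1_at, which has no such mark, F3H had 359.3, 356.7 and 150.8 in root meristem against 443.5 and 611.9. These groups did not overlap either, but the difference did not pass (log2 -0.96 ± 0.42, adjusted p = 0.118). Root meristem array 3 was the low one on this probe set, and its 3 root meristem values spanned 2.38-fold, wider than at 88% of all probe sets tested. With F3H taken as the mean of both probe sets, an alternative chosen after seeing the data, it was lower (log2 -3.42 ± 0.30, adjusted p = 0.000355).

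**Figure D2:**
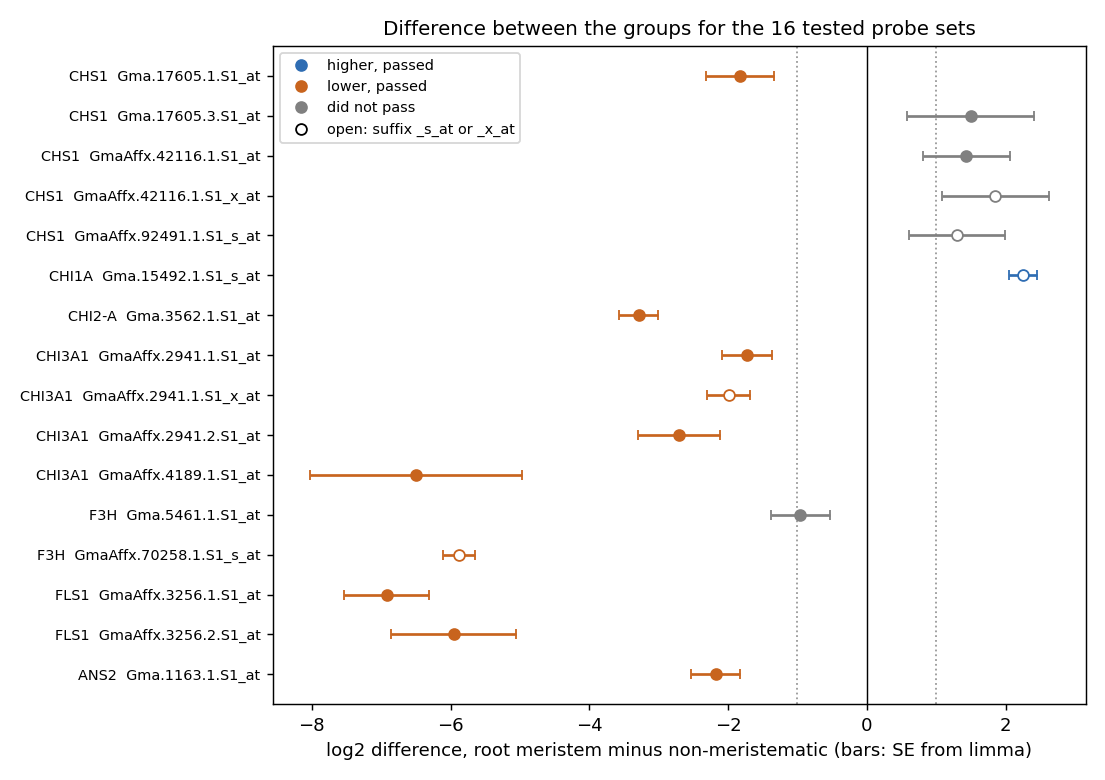
Log2 difference between root meristem and non-meristematic tissue (horizontal axis, bars are the SE from limma) for the 16 tested probe sets (rows), with open symbols for the suffixes _s_at and _x_at and dotted lines at the minimum size of 1. CHI1A is the one probe set that passed to the right of 0, and 4 CHS1 probe sets lie to the right without passing.

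The chalcone isomerase genes went in opposite directions. CHI1A encodes an isomerase of the legume type, which also accepts the chalcone made with chalcone reductase and so feeds isoflavone synthesis. It had signals of 3949.8, 4706.7 and 4563.8 in root meristem against 765.8 and 1114.5 in the other tissue. All root meristem arrays were above both others, and the difference was 4.76-fold (log2 2.25 ± 0.20, adjusted p = 0.000404). Its only probe set carries a suffix for possible cross-hybridization, so signal of close relatives may be included.

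CHI2-A, an isomerase of the type common to flowering plants, had signals of 79, 80.4 and 126.4 in root meristem against 890.8 and 925.6 in the other tissue. It was 9.77-fold lower in root meristem (log2 -3.29 ± 0.28, adjusted p = 0.000349), and the non-meristematic arrays differed by 1.04-fold. Its probe set has no suffix for cross-hybridization. In the gene order of the RefSeq assembly Glycine_max_v4.0, CHI1A and CHI2-A are separated by 1 gene, CHI1B1, another isomerase of the legume type. The members of this run of neighbouring genes thus differed in direction.

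CHI3A1 belongs to a group of chalcone isomerase-like proteins that in Arabidopsis bind fatty acids. It was low on all arrays and lower in root meristem on each of its 4 probe sets. Its brightest, GmaAffx.2941.1.S1_x_at, had 28.1, 30.6 and 29.1 in root meristem against 105.2 and 128.2 (3.97-fold lower, log2 -1.99 ± 0.31, adjusted p = 0.00327). The probe set of the same design without the suffix had 26, 29.3 and 19.9 against 80.2 and 83.8 (3.31-fold lower, adjusted p = 0.00996). On GmaAffx.2941.2.S1_at the signals were 19.8, 32.6 and 8.8 against 133.6 and 101.7, with 1 of 3 root meristem arrays above background (log2 -2.71 ± 0.59, adjusted p = 0.012). GmaAffx.4189.1.S1_at was not well above background in root meristem, at 0.5, 6.8 and 0.4, against 71.4 and 141.1, at least 4.95-fold lower. Its adjusted p of 0.0155 (limma) was for the signals not held at background, and the filter had given the direction. No probe set of CHI3A1 had overlapping groups.

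Of the other isomerase genes on the array, CHI1B1 and CHI4A were higher in root meristem. CHI1B1 rose on all 4 of its probe sets, by 7.23-fold to 10.7-fold. On the brightest it had 1029.1, 1013.7 and 1363.8 in root meristem against 144.1 and 117.5 in non-meristematic tissue. CHI4A, an isomerase-like gene of another group, rose 4.14-fold on its brightest probe set, with 3238.5, 3416.2 and 3548.3 against 825.5 and 818.1 (adjusted p = 0.00016), and 2.60-fold on its other one. Over the 5 isomerase genes, 3 were higher and 2 lower.

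**Figure D3:**
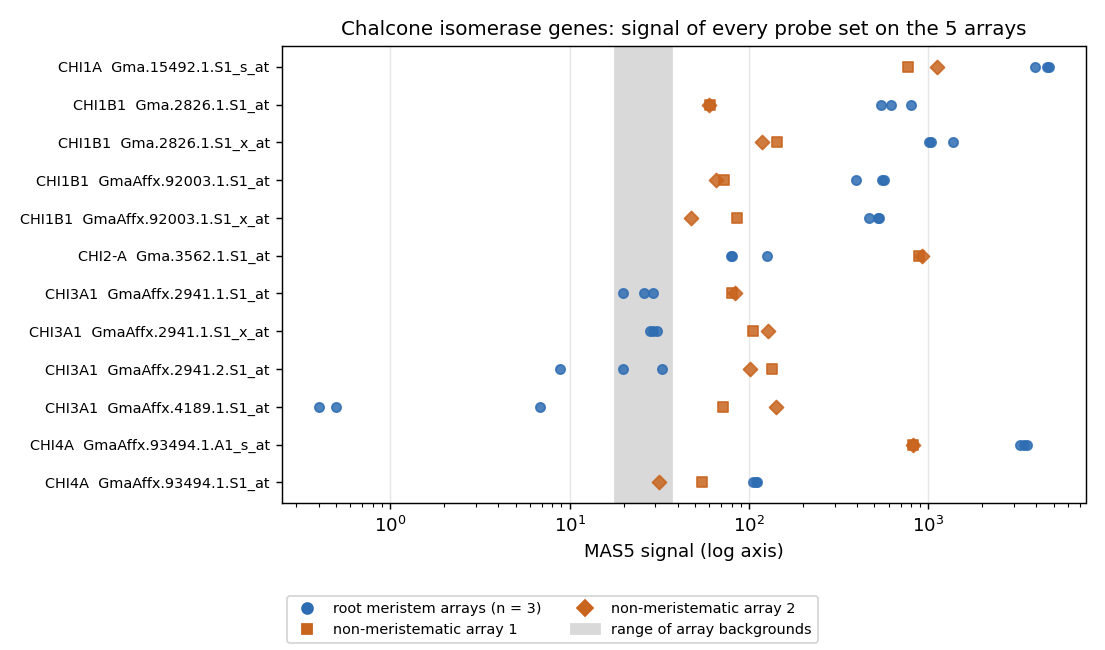
MAS5 signal (horizontal log axis) of every 1-gene probe set of the 5 chalcone isomerase genes that such probe sets name, by array, with the grey band as the range of backgrounds. Root meristem values (blue) lie to the right of the non-meristematic values (orange) for CHI1A, CHI1B1 and CHI4A, and to the left for CHI2-A and CHI3A1.

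Ratios within an array do not depend on how arrays are scaled to each other. They join probe sets of different brightness, so that only their change between groups was read. The log2 ratio of CHI1A over CHI2-A was 5.64, 5.87 and 5.17 in root meristem against -0.22 and 0.27 in non-meristematic tissue, a shift of 46.5-fold. That of CHI1A over CHI3A1 shifted by 18.9-fold, from 2.86 and 3.12 on the non-meristematic arrays to 7.14, 7.27 and 7.29 in root meristem. The shift was a log2 of 5.48 in place of 4.24 when each gene was the mean of its probe sets. CHI3A1 lay close to background in root meristem, so the size of shifts against it is uncertain. CHI2-A over CHI3A1 shifted the other way by 2.46-fold, but by a log2 of -0.06 in place of -1.30 when each gene was the mean of its probe sets. The ratios of FLS1 over ANS2 and over F3H were also lower in root meristem, but FLS1 lay below background there, so no size is given. All 6 ratios tested separated the groups, each with p = 0.1 in a two-sided exact permutation test (adjusted over the 6, p = 0.1). That is the smallest p that 3 arrays against 2 can give, so none can pass 0.05. The direction of FLS1 was given by the filter, so nothing is read from the separation of its ratios.

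CHS1 gave different answers from different probe sets. On its brightest, Gma.17605.1.S1_at, signals were 284.8, 462.7 and 133.3 in root meristem against 911.1 and 935.7 in the other tissue, a 3.55-fold decrease (log2 -1.83 ± 0.49, adjusted p = 0.0248). The root meristem values spanned 3.47-fold while the non-meristematic arrays differed by 1.03-fold. Without root meristem array 1 this call was lost (log2 -1.89, adjusted p = 0.0603).

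The other 4 tested CHS1 probe sets had log2 differences of 1.30 to 1.85 in favour of root meristem, and none passed. On GmaAffx.92491.1.S1_s_at the signals were 442.6, 626.8 and 424.1 in root meristem, 487.4 on non-meristematic array 1 and 80.9 on array 2. On Gma.17605.3.S1_at they were 110.6, 264.6 and 108.2, with 159.2 and 17 on non-meristematic arrays 1 and 2. The low sample was thus non-meristematic array 2, while array 1 was close to root meristem. The GmaAffx.42116 pair showed the same order, at 100 and 107.6 on array 1 against 21.7 and 15 on array 2, with 100.2 to 168.4 in root meristem.

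Over these 4 CHS1 probe sets non-meristematic array 1 was 4.61-fold to 9.36-fold above array 2. Only on GmaAffx.92491.1.S1_s_at, at 6.02-fold, were both arrays above background. On Gma.17605.3.S1_at and the GmaAffx.42116 pair array 2 lay below its background of 26.3, so the size of their folds is uncertain. A gap of more than 4-fold between these arrays was found at 6.46% of all probe sets tested. Without array 1 the log2 differences of the 4 were 2.54 to 3.28. Gma.17605.3.S1_at and the GmaAffx.42116 pair then entered the test only through root meristem, so that their direction was given by the filter. With 1 non-meristematic array left, the spread in that fit came from the root meristem arrays alone, and the lone array was assumed to vary like them. Without array 2 the log2 differences were -0.12 to 0.43. At the other 12 tested members the 2 arrays differed by 1.03-fold to 1.98-fold. The summed signal of the 7 green leaf markers was 35079 on array 1 and 25642 on array 2, that of the YABBY genes 845 and 1293, and the part of either in the CHS1 gap was not tested. The last 2 CHS1 probe sets, Gma.17834.1.S1_at and GmaAffx.82413.1.S1_at, were below background on all 5 arrays, at 1.2 to 6.9 and 4.5 to 18.3.

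Chalcone synthase genes of soybean are close copies, and within 6 genes of CHS1 the RefSeq order holds CHS3, CHS5 and CHS9, none of which is named by a 1-gene probe set here. Signal of these copies cannot be told apart from that of CHS1, with or without a suffix on the probe set. CHS8, the other chalcone synthase gene named by a 1-gene probe set, rose on all 5 of its probe sets. Of these, Gma.4300.1.A1_at entered the test only through root meristem signal, so the filter gave its direction. On the brightest, CHS8 had 4984.1, 5719.6 and 5269.7 against 160.7 and 276.6 (25.2-fold, adjusted p = 7.35e-05, limma). On its 4 probe sets above background in both groups, non-meristematic array 1 was the lower of the pair, at 0.58 to 0.64 of array 2, opposite to the order at CHS1. The within-array log2 ratio of CHS1 over CHS8 shifted by -6.48, or by -3.97 with each gene as the mean of its tested probe sets. With CHS1 taken as that mean, its difference did not pass (log2 0.85 ± 0.63, adjusted p = 0.326).

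**Figure D4:**
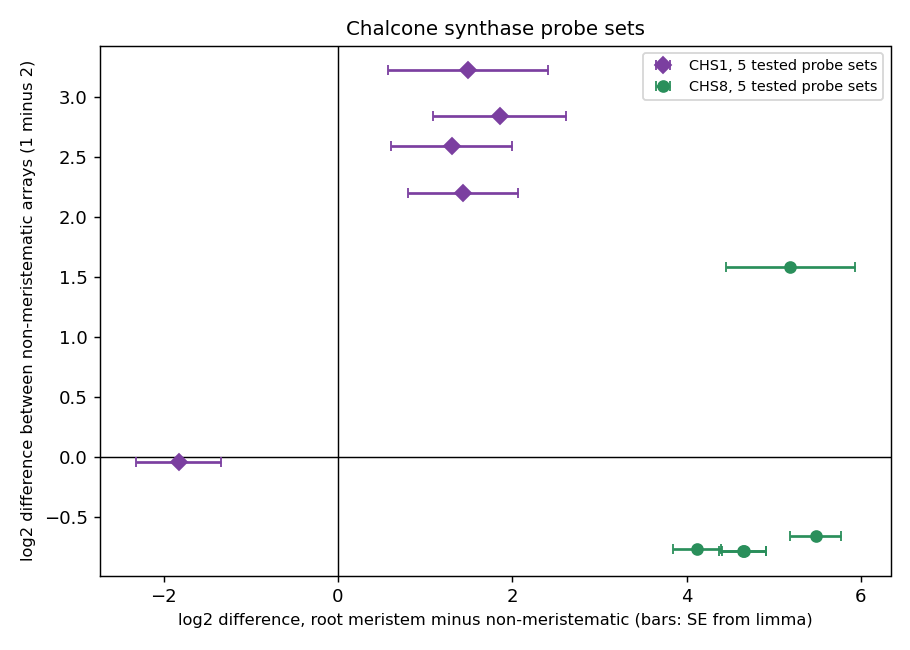
Each point is a tested probe set of CHS1 (purple diamonds) or CHS8 (green circles), with the log2 difference between groups on the horizontal axis (bars are the SE from limma) and the log2 difference between non-meristematic arrays 1 and 2 on the vertical axis. The 4 CHS1 probe sets right of 0 lie at 2.20 to 3.23 on the vertical axis, while the brightest CHS1 probe set lies left of 0 at -0.04. Of the 4, only GmaAffx.92491.1.S1_s_at was above background on both non-meristematic arrays.

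The rest of the pathway was counted in a list filled by gene symbol, in which the filter gave the direction of several genes named below. Of 43 flavonoid pathway genes with a 1-gene probe set 35 were tested, of which 19 were higher, 11 lower and 5 did not pass. Over all 5652 genes tested, 18.6% were higher and 21% lower. The median log2 difference was 1.06 over the pathway genes, against 0.20 over all genes tested. Without the 7 members, 18 of 28 were higher and 6 lower. Without probe sets suffixed for cross-hybridization 10 pathway genes were higher and 11 lower, so that higher genes no longer outnumbered lower ones. Genes above background only in non-meristematic tissue, such as FLS1, could not be tested with 1 of its arrays left out. In the isoflavone branch 10 of 12 tested genes were higher, among them the isoflavone synthase genes IFS1 and IFS2 and the dehydratase gene HIDH. IF7GT, an isoflavone glucosyltransferase gene, was lower (142.1, 80.3 and 152.8 against 678.1 and 729.5). IFS1, IFS2 and PTS1 had only probe sets suffixed for cross-hybridization, and G4DT was tested on such a probe set alone. CYP93A1 and IFR passed on suffixed probe sets, while on those without the suffix the groups overlapped (log2 0.67 ± 0.54 and 0.07 ± 0.47). HIDH passed on probe sets with and without the suffix. Of the chalcone reductase genes, CHR1 and CHR5 were higher, CHR4 did not pass and CHR3 was below background on all arrays. CHR5 and, in the isoflavone branch, CYP93A1, G4DT and IFR entered the test only through root meristem signal, so the filter gave their direction. IFR2 counted as higher at an adjusted p of 0.04997 (limma), and its other probe sets did not pass.

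Few genes of the steps next to the members were measured well. UGT78K1, which attaches a sugar to anthocyanidins, had 14.6, 7.4 and 6.8 in root meristem, below background, against 361.7 and 217.7, at least 13.8-fold lower. UGT1, placed by its symbol alone, was lower on its brightest probe set (6.07-fold), with 1 of the 3 tested probe sets short of the threshold. LAR1, a leucoanthocyanidin reductase gene of proanthocyanidin synthesis, was at 1.1, 0.5 and 0.9 against 87.1 and 86, at least 4.27-fold lower. UGT78K1 and LAR1 entered the test only through their signal in non-meristematic tissue, so that their direction, too, was given by the filter. The dihydroflavonol reductase genes DFR1 and DFR2 were not tested: DFR1 had 11.3, 17 and 18.3 in root meristem against 21.6 and 7.7, and DFR2 had 8.4, 1.2 and 9.4 against 30.5 and 21.6. Of the entry enzymes, 4CL1 and 4CL2, coumarate ligase genes, were lower by 6.54-fold and 6.07-fold, while 4CL and 4CL4 were higher. PAL2.1, a phenylalanine ammonia-lyase gene, was higher on its brightest probe set (3.47-fold), while its other 2 had overlapping groups and log2 differences of 0.09 ± 0.26 and 0.89 ± 0.46. No symbol on the array matched a B-ring hydroxylase or flavone synthase gene, and these were not analysed here.

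**Figure D5:**
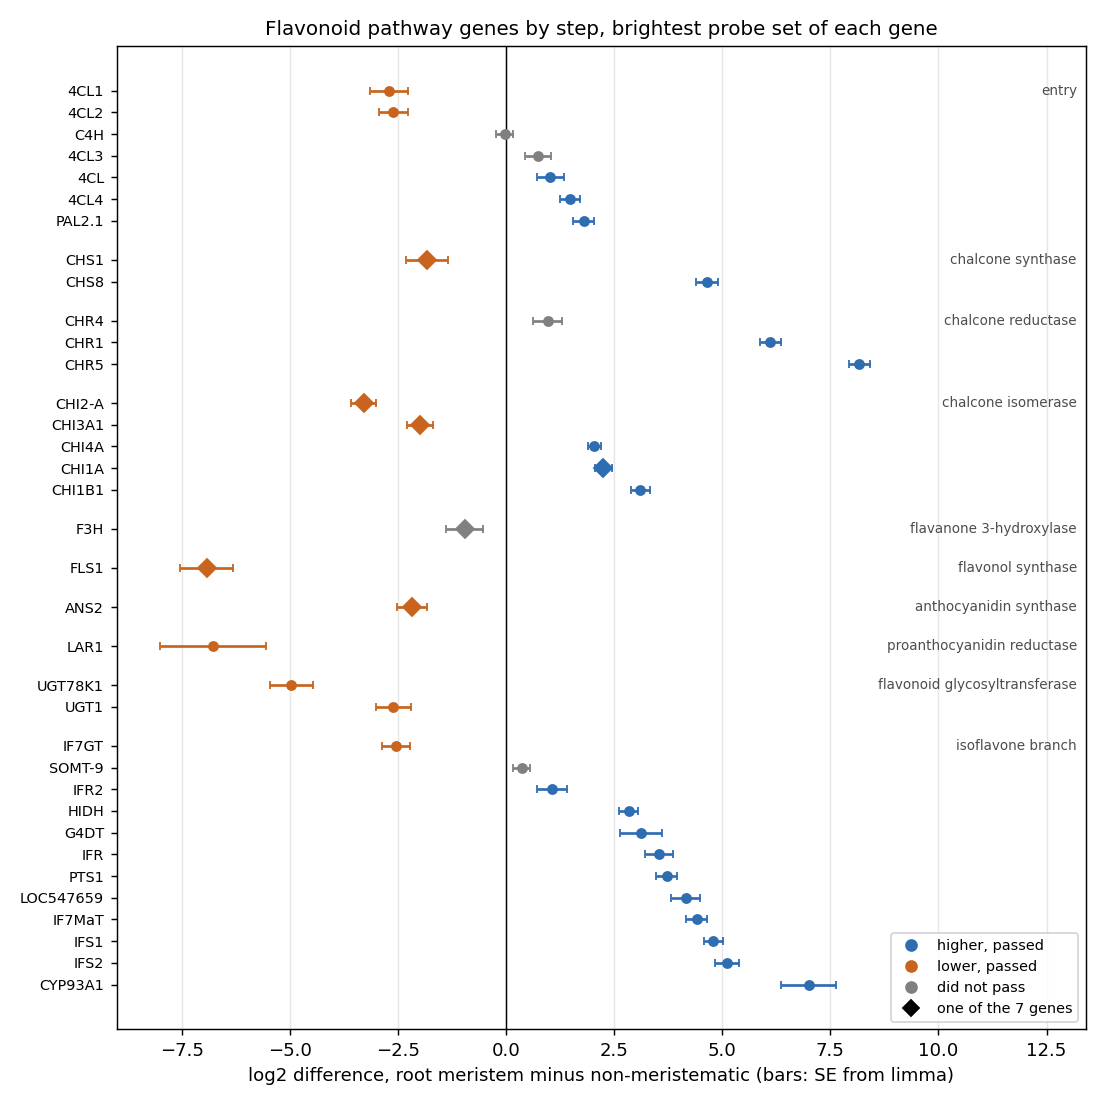
Log2 difference (horizontal axis, bars are the SE from limma) of the 35 tested pathway genes, each by its brightest probe set, grouped by step from top to bottom, with diamonds for the 7 genes. Values right of 0 are higher in root meristem, and the isoflavone branch lies mostly right. From flavanone 3-hydroxylase to the flavonoid glycosyltransferases the tested genes lie left, with F3H not past the test. The filter gave the side of FLS1, LAR1 and UGT78K1 on the left, and of CHR5, CYP93A1, G4DT and IFR on the right.

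The named genes with the most similar pattern were found for each of the 7 genes among 883 others, by the root mean squared difference of mean-centred log2 signal over the 5 arrays. For FLS1, which lay below background in root meristem, the distance also holds the scatter there and is not given. CHI2-A had a near match in CYP28, at 0.07, with 84.3, 93.6 and 135 in root meristem against 904.3 and 1022.6. For ANS2 they were the nitrate transporter gene NRT1-3 (0.16) and FTRC (0.18), for CHI3A1 PDS1 (0.10) and CPX (0.10), and for CHI1A SCA2 (0.12) and the transcription factor gene BZIP124 (0.13). CHS1 on its brightest probe set was nearest to NAC12 (0.20) and BZIP105 (0.22), both transcription factor genes, and F3H on its brightest to MET2 (0.19) and GSTU1 (0.20). With 5 arrays in 2 groups, such likeness mostly repeats the difference between the groups.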

How the data were processed

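RNA of 5 samples was hybridised to Affymetrix soybean arrays. The deposited linear intensity values came from MAS5, per the submitters' processing notes, with version and scaling target not given in the sources used. A 2% trimmed mean of signal was 268 to 277 on every array. Arrays carry no molecule counts, so the number of arrays limits precision. Signals were floored at 0.1, log2 was taken with no further scaling, and limma 3.58.1 in R 4.3.3 (lmFit, eBayes with trend) was fitted on all tested probe sets, with 3 residual and 3.68 prior degrees of freedom. The procedure was tested on simulated data. Where a group was at or below background on all its arrays, the fold is "at least", with that group's arrays raised to background where they lay below it. The p-values of such probe sets came from signals not raised in this way. Names came from the platform annotation, updated by Entrez number with the RefSeq table of Glycine_max_v4.0: of 37593 probe sets 8677 had 1 gene, of which 8652 matched, 370 had several and 28546 were not listed. The named genes were all members, pathway genes at the same or the next step, and the 2 nearest genes by pattern. Members and lists were chosen with earlier results of these data known. Alternatives were 2 scalings, 2 filters, a pseudocount of 16, no trend, a replicate block, leaving out each array, leaving out suffixed probe sets and averaging probe sets (for gene counts chosen after seeing the data, as was the probe set of highest mean linear signal).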

Additional observations from a re-analysis of the deposited data

How the results depend on the processing

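Every member probe set kept its direction under all alternatives in which it was tested, except that the CHS1 probe set Gma.17605.3.S1_at reversed without non-meristematic array 2 (log2 -0.12, adjusted p = 0.868; 3.11 without array 1). With the filter at the array median, 5 member probe sets and 3 member genes were lower, since dim probe sets such as that of ANS2 were no longer tested. Median centring gave 3 member probe sets higher in place of 1, both additions from CHS1, and 7668 probe sets higher over the array. Without suffixed probe sets, 0 member probe sets and 0 member genes were higher (limma, with the only probe set of CHI1A removed). Among pathway genes 10 were then higher and 11 lower. Leaving out 1 array at a time gave 1 to 5 member probe sets higher, 3 to 5 member genes lower, and 7 to 11 pathway genes lower. Without non-meristematic array 2, FLS1 was not tested and CHS1 was represented by another probe set. Samples of the 2 groups share replicate numbers but no stated pairing, and the deviations of same-numbered arrays correlated at 0.10 and -0.09. With the replicate block, 1 member probe set was higher and 9 lower, as the CHI3A1 probe set GmaAffx.2941.1.S1_at no longer passed (adjusted p = 0.0708), and over all probe sets 3345 were higher and 4244 lower. The 6 within-array ratios kept their sign under the alternatives run, but with genes as the mean of their probe sets CHI2-A over CHI3A1 was at -0.06 (exact permutation test, adjusted p = 0.8), and the groups no longer separated. With the probe set of highest mean linear signal, also chosen after seeing the data, 6 member genes and 12 pathway genes were lower. With genes as the mean of their probe sets, 5 member genes were still lower, but F3H had replaced CHS1 among them.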
